A study of Homo sapiens with 8 samples.

Results

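The 44 protein-coding genes whose symbol is ADAM, ADAMTS or ADAMTSL followed by a number were examined among 20136 protein-coding genes. They encode metalloproteases of the cell surface and the extracellular matrix, and their relatives. Accessible chromatin had been mapped by ATAC-seq, in which the Tn5 transposase cuts and tags open DNA, in LX-2 cells, an established line of human hepatic stellate cells. The cells, which carried no transgene or drug treatment in the labels used here, grew on hydrogel of 2 kPa (soft) or 40 kPa (stiff) until day 2 (D2) or day 4 (D4). Each of the 4 groups had 2 replicate libraries, and all 8 came from the same line, so that the groups stand for 1 immortalised cell line and not for primary cells. For each gene, the peaks in its body and 10 kb on each side were counted in each library's list, and a peak within 1 kb of a protein-coding transcript start was called a promoter peak. Peaks were ranked within a list by the caller's −log10 p, rank 1 being the lowest p.

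ADAM proteins are membrane-anchored, and the active members release growth factors, cytokines and receptors from the cell surface. ADAMTS proteins are secreted and act in the matrix, where they cleave proteoglycans such as versican and aggrecan, remove the amino-terminal propeptide of fibrillar procollagens or act on microfibrils, and the ADAMTS-like proteins share their ancillary domains but lack the protease. In the fibrotic liver, activated stellate cells are the main source of collagen-rich matrix, and they are known to express several of these genes.

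The 8 peak lists differed in length. They held between 55754 and 72840 peaks in 7 libraries and 29789 in D2 soft replicate 1, and read totals were not used, so that sequencing depth is unknown. Stiff lists held 65427 ± 5658 peaks and soft lists 51294 ± 14737 (mean ± SD, n = 4 each). Any count that follows may move with list length, and was therefore repeated with every list reduced to its best 29789 peaks ("lists of equal length"). Among 10 stellate cell or myofibroblast markers, 6 had a promoter peak in all 8 libraries (ACTA2, TAGLN, VIM, PDGFRB, COL1A1 and LOX), while COL3A1 and DES had none. COL1A2 had one in 6 libraries and LRAT in 1. No hepatocyte marker of 5, no endothelial marker of 4 and no cholangiocyte marker of 4 had a promoter peak in all libraries. PECAM1, also on the endothelial list, was not evaluated. The cholangiocyte marker EPCAM had one in 6 libraries, the endothelial markers CDH5 and TEK in 4 and 2, and the hepatocyte marker TTR in 2. CD14 was the 1 leukocyte marker of 5 with a promoter peak in all libraries, and CSF1R had one in 6.

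Peaks lay in or near 41 of the 44 genes. ADAM2, ADAM7 and ADAM18, of the testis and epididymis group, had no peak in any library, against 9.46% of all protein-coding genes. ADAM28 had 1 peak, in D4 soft replicate 1. Merged over libraries, with sites kept where at least 2 libraries had a peak, the genes held 233 of 75501 sites. Of these, 162 were intronic, 29 were at a promoter of their gene, 21 were in the downstream and 16 in the upstream flank, 3 were in coding exons and 2 in untranslated exons. A total of 12 sites were also at the promoter of another protein-coding gene, and 1 site fell in the windows of both ADAM9 and ADAM32.

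The number of peaks differed widely between genes. Over the 44 windows, which ran from 22.98 to 1024 kb with a median of 112 kb, the mean number of peaks per gene was higher in longer windows (Pearson's r = 0.695, Spearman's rho = 0.484 over 44 genes, which share the same libraries and are not replicates). The median was 2.34 peaks per 100 kb, against 3.41 per 100 kb over all protein-coding genes, whose median window was 47.2 kb.

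**Figure D1:**
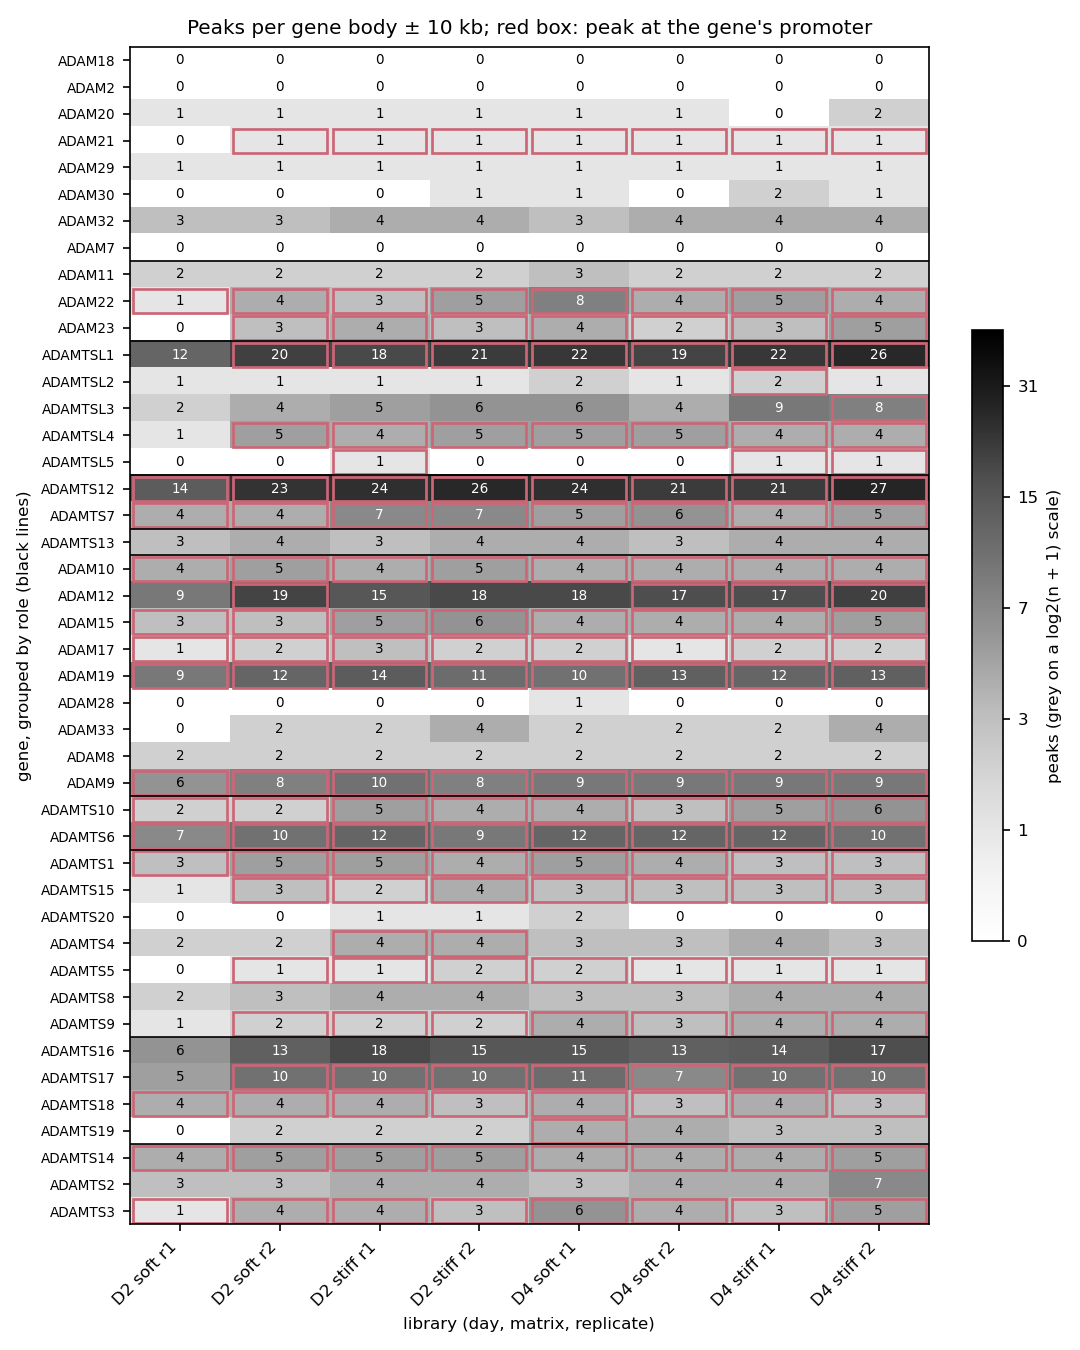
Number of ATAC-seq peaks in the body and 10 kb flanks of each of the 44 genes (rows, grouped by role) in each of the 8 libraries (columns), with a red box where a peak lay within 1 kb of a transcript start. D2 soft replicate 1, the first column, had 14 boxed genes where the other libraries had 23 to 25.

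Promoter peaks were present in all 8 libraries for 14 of the 44 genes, in some libraries for 14 and in none for 16. Over all protein-coding genes, 44.8% had a promoter peak in every library, 25.2% in some and 30% in none, beside 31.8%, 31.8% and 36.4% of the 44 genes. In each library 14 to 25 of the genes had a promoter peak.

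The active ADAM sheddases held 5 of the 14 constant promoters. These were ADAM9, ADAM10, ADAM15, ADAM17 and ADAM19, which include the sheddases of Notch (ADAM10) and of tumour necrosis factor (ADAM17). With lists of equal length, ADAM19 had a promoter peak in 7 libraries, and ADAM9, ADAM10, ADAM15 and ADAM17 had one in all 8. The promoter peak was the best-ranked peak of the gene in all libraries for ADAM10 (ranks 1341 to 5360), for ADAM17 (ranks 7415 to 15317) and for ADAM22 (ranks 507 to 4687), a catalytically inactive receptor of LGI1 in the nervous system. ADAM8, a sheddase of leukocytes, had 2 peaks in every library but none at its promoter, and ADAM33 had 0 to 4 peaks and no promoter peak. The ADAM9 promoter peak was also within 1 kb of a start of TM2D2, so that the promoters of these neighbours cannot be told apart.

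Of the secreted enzymes, both COMP-cleaving genes (ADAMTS7 and ADAMTS12) and both fibrillin-related genes (ADAMTS6 and ADAMTS10) had constant promoter peaks. So had the procollagen N-proteinase genes ADAMTS3 and ADAMTS14, the hyalectanase ADAMTS1 and ADAMTS18. With lists of equal length, the promoter of ADAMTS7 had a peak in 1 library, that of ADAMTS14 in 2, that of ADAMTS1 in 4 and that of ADAMTS10 in 5. Those of ADAMTS3, ADAMTS6, ADAMTS12 and ADAMTS18 then still had one in all 8. ADAMTS2, the main N-proteinase of procollagen I, had 3 to 7 peaks per library and none at a promoter, although its best peak reached ranks of 441 to 5800. The ADAMTS7 promoter peak was also within 1 kb of a start of MORF4L1. No ADAMTS-like gene had a promoter peak in all libraries, and all 5 had one in some.

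Most of the promoters that varied did so in 1 library. Of the 14 genes with a promoter peak in some libraries, 8 lacked it only in D2 soft replicate 1, the library with the short list: ADAM21, ADAM23, ADAMTS5, ADAMTS9, ADAMTS15, ADAMTS17, ADAMTSL1 and ADAMTSL4. Over all protein-coding genes, 44.5% of the variable promoters were missing in that library alone. Without that library, 22 of the 44 genes had a promoter peak throughout, and with lists of equal length 9 did.

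Peaks at these 8 promoters stood at very different places in the lists. The aggrecanase gene ADAMTS5 had its only recurrent peak there, at ranks 34293 (D2 soft replicate 2), 28726 and 43324 (D2 stiff), 44323 and 29029 (D4 soft), and 28397 and 51903 (D4 stiff). The ADAM23 promoter peak ranked from 34388 to 48164, that of ADAM21 from 31523 to 53250 and that of ADAMTSL1 from 27195 to 48815. Those of ADAMTSL4 (12989 to 33885), ADAMTS17 (15260 to 30692) and ADAMTS15 (21989 to 50148) reached higher places, but each range overlapped that of ADAMTSL1. That of ADAMTS9, which cleaves versican, ranked 2655 to 4270 in 6 libraries and 60194 in D4 stiff replicate 2. The site behind those 6 peaks was also listed in D2 soft replicate 1 (rank 5522) and D4 stiff replicate 2 (rank 9309), where the peak ended outside the 1 kb window, so that ADAMTS9 had this site in every library. With lists of equal length, the promoter of ADAMTS5 had a peak in 3 libraries and those of ADAM21 and ADAM23 in 0. Those of ADAMTS9, ADAMTS15 and ADAMTSL4 had one in 6, that of ADAMTS17 in 5 and that of ADAMTSL1 in 1.

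The other 6 variable promoters were marked by low-ranked peaks. ADAM12, a disintegrin-metalloprotease known from activated stellate cells, had a promoter peak in D2 soft replicate 2 (rank 53983), D4 soft replicate 2 (50915) and both D4 stiff libraries (65317 and 67358). ADAMTS4, an aggrecanase, had one in both D2 stiff libraries (ranks 58606 and 57774) and in no other. The fold enrichment of that peak was 2.92 and 3.53. ADAMTSL5 had one in D2 stiff replicate 1 (rank 51144) and both D4 stiff libraries (63322 and 52302) and in no soft library. ADAMTS19 had one in D4 soft replicate 1 (57107), ADAMTSL2 in D4 stiff replicate 1 (59965) and ADAMTSL3 in D4 stiff replicate 2 (61197). None of these 6 genes had a promoter peak with lists of equal length, and none of the 44 had one throughout the stiff and nowhere among the soft libraries (0.174% of all genes did) or in every D4 and no D2 library (0.0894%).

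The best-ranked peaks of the family lay mostly away from promoters. For 28 of the 41 genes with a peak, the best peak was at the gene's own promoter in no library, and for 6 it was there in every library with a peak. The best mean rank over the 8 libraries belonged to ADAMTS16 (29.3), followed by ADAMTS12 (141), ADAMTS6 (624), ADAM9 (1248) and ADAM32 (1496). The first 3 of these genes are on chromosome 5, which held 6 of the 44 genes.

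ADAMTS16, a secreted protease with few known substrates, had a peak among the top 50 of every list. The best rank was 43 and 28 (D2 soft), 14 and 31 (D2 stiff), 42 and 23 (D4 soft) and 26 and 27 (D4 stiff) (replicates 1 and 2). The fold enrichment of these peaks was 13.2 to 17.5. In 4 libraries the best peak was at a site overlapping a coding exon, 6032 bp from the nearest start, and in the other 4 it was at an intronic site 131483 bp from the nearest start. No library had a peak at an ADAMTS16 promoter. ADAMTS12, which cleaves the cartilage protein COMP, had its best peak at 1 intronic site in all libraries, with ranks of 289 and 106, 92 and 167, 153 and 68, and 56 and 196 in the same order of groups. ADAMTS6, a protease linked to fibrillin microfibrils, also used 1 intronic site throughout, with ranks of 969 and 687, 260 and 294, 559 and 710, and 888 and 621. In each of these genes the ranks of stiff and soft libraries overlapped.

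Chromosome 5 held many of the best peaks of every library, those of these genes included. It had 6.98% to 7.31% of the listed peaks of a library but 26 to 34 of its 100 best peaks. Of those 100, 16 to 30 lay before position 48 Mb, beside 1.84% to 2.01% of the listed peaks. ADAMTS16 and ADAMTS12 lie before that position and ADAMTS6 beyond it. The part of this concentration in the ranks of the 3 genes was not tested.

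The sequences around these best-ranked sites are shown because they carry peaks with the lowest p of the family. Each is 201 bases of the GRCh37 plus strand centred on the summit of the site's best peak, taken by rank as a share of its list. Capitals mark the AP-1 motif (TGACTCA, or TGAGTCA as its reverse complement), the TEAD motif (GGAATG or CATTCC) and the GC box (GGGCGG or CCGCCC), searched on both strands.
ADAMTS16 coding exon site, chr5:5146006-5146206: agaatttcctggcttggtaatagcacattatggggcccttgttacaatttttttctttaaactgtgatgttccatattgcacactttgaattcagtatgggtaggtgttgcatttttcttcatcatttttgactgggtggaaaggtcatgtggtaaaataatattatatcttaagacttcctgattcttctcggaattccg
ADAMTS16 intronic site, chr5:5271484-5271684: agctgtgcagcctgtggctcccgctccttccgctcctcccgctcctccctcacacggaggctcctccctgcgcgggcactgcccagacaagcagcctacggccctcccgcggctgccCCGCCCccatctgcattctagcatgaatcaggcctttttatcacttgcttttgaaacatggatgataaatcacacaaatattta
ADAMTS12 intronic site, chr5:33789054-33789254: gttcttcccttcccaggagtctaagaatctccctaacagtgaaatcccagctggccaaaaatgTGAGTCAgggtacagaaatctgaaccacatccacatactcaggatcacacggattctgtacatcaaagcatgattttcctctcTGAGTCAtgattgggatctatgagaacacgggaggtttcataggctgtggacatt
ADAMTS6 intronic site, chr5:64494703-64494903: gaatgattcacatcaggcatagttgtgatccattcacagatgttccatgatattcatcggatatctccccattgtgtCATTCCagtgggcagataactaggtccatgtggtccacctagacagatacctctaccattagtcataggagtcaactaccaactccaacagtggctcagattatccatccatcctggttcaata
The ADAMTS12 window held 2 AP-1 matches, the ADAMTS6 window 1 TEAD match and the ADAMTS16 intronic window 1 GC box. The window of the ADAMTS16 site named for a coding exon held none of the 3 motifs. Sites were classed by their midpoint, and for this site the midpoint lies outside the window. The bases shown for it are therefore not placed in a coding exon.

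Over the 233 sites, 31.8% held an AP-1 match in the same window, 23.2% a TEAD match and 12.4% a GC box. Over all 75501 sites these shares were 30.2%, 19.1% and 16.2%. Of the 29 promoter sites of the genes, 1 held an AP-1 match and 13 a GC box, against 73 and 16 of the 204 other sites. A match describes the letters only. The median GC content was 64.7% at the promoter sites and 47.01% at the others.

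ADAM9 and ADAM32 shared their best peak. It lay in an intron of ADAM32, a gene of the testis, and in the downstream flank of ADAM9, a widely expressed sheddase. For ADAM32 its rank was 4441 and 667 (D2 soft), 574 and 1017 (D2 stiff), 3086 and 278 (D4 soft) and 927 and 980 (D4 stiff). The ranks of soft libraries spanned those of stiff ones. In D2 soft replicate 1 the ADAM9 promoter, at rank 2454, stood above it.

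**Figure D2:**
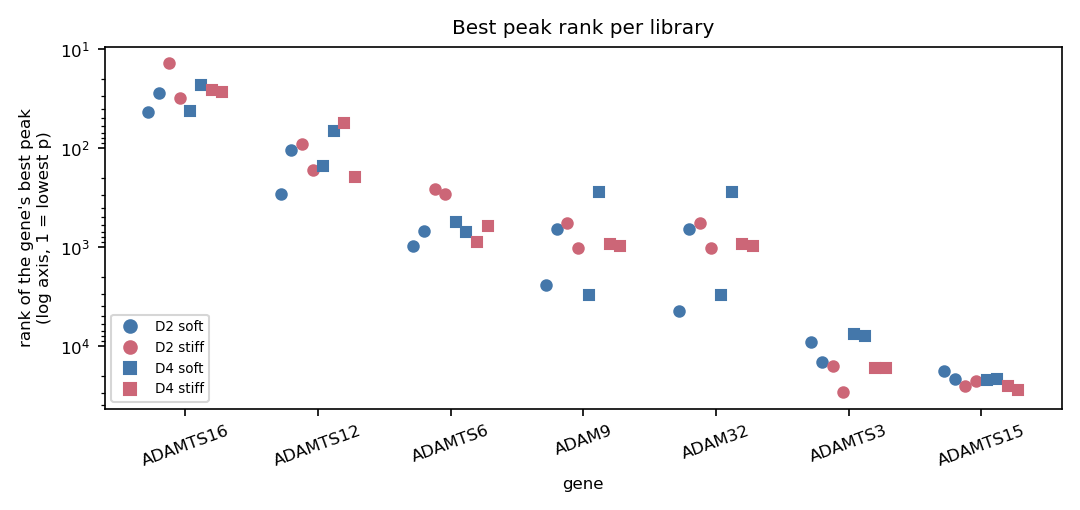
Rank of the best peak of 7 genes in each library (log axis, 1 at the top being the lowest p), coloured by matrix and with circles for D2 and squares for D4. ADAMTS16 stayed between ranks 14 and 43, and ADAMTS12 between 56 and 289. The ranks are not divided by the list lengths.

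The 5 genes with the most peaks were ADAMTS12, ADAMTSL1, ADAM12, ADAMTS16 and ADAM19, with means of 22.5, 20, 16.6, 13.9 and 11.8 peaks per library. ADAMTS12 had 14 and 23 peaks (D2 soft), 24 and 26 (D2 stiff), 24 and 21 (D4 soft) and 21 and 27 (D4 stiff). ADAMTSL1, a matrix protein without protease activity and the gene with the longest window, had 12 and 20, 18 and 21, 22 and 19, and 22 and 26. ADAM12 had 9 and 19, 15 and 18, 18 and 17, and 17 and 20. ADAMTS16 had 6 and 13, 18 and 15, 15 and 13, and 14 and 17, and ADAM19 had 9 and 12, 14 and 11, 10 and 13, and 12 and 13. In each of the 5 genes D2 soft replicate 1 was the lowest library, and in none did stiff and soft or D4 and D2 libraries separate. Of their sites, 12 of 24 (ADAMTS12), 9 of 25 (ADAMTSL1), 9 of 20 (ADAM12), 6 of 16 (ADAMTS16) and 8 of 13 (ADAM19) were in every library.

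Sites of the family recurred across libraries. A peak was present in every library at 100 of the 233 sites (42.9%), against 32.1% of all sites, and at 53 sites in 7 libraries. Of those 53, 42 were missing in D2 soft replicate 1 alone. With lists of equal length, 43.8% of 146 sites were in every library, against 39.7% of all sites.

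**Figure D3:**
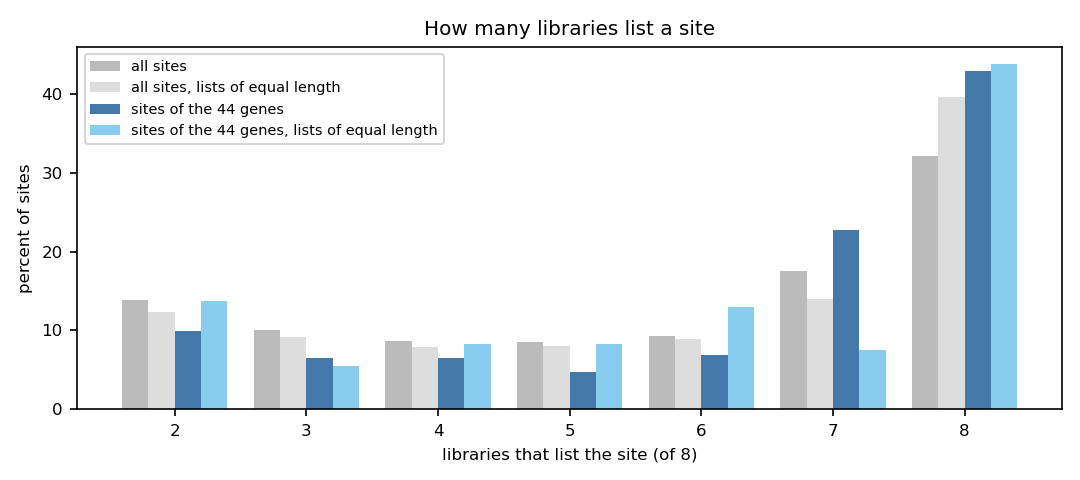
Percent of merged sites (y axis) by the number of libraries that list them (x axis), for all sites and for sites of the 44 genes, in the deposited lists and in lists of equal length. Sites in all 8 libraries were the largest class in each set.

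The first comparison asked whether the stiff matrix changed the peaks of these genes. In the deposited lists the 44 windows held more peaks on the stiff matrix: 222.8 ± 11.03 against 185.5 ± 45.8 (mean ± SD, n = 4 each). On day 2 the soft libraries had 120 and 198 peaks and the stiff ones 217 and 220, and on day 4 the soft had 227 and 197 and the stiff 215 and 239. The groups overlapped. The difference of 37.3 peaks became 15.4 without D2 soft replicate 1 and fell to -5.5 with lists of equal length, where stiff libraries held 111.8 ± 3.6 and soft libraries 117.3 ± 4.1. Per 1000 listed peaks, stiff libraries had 3.41 ± 0.19 and soft libraries 3.67 ± 0.24 in these windows. No p is given for these sums, since the genes were chosen with results of these data known.

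**Figure D4:**
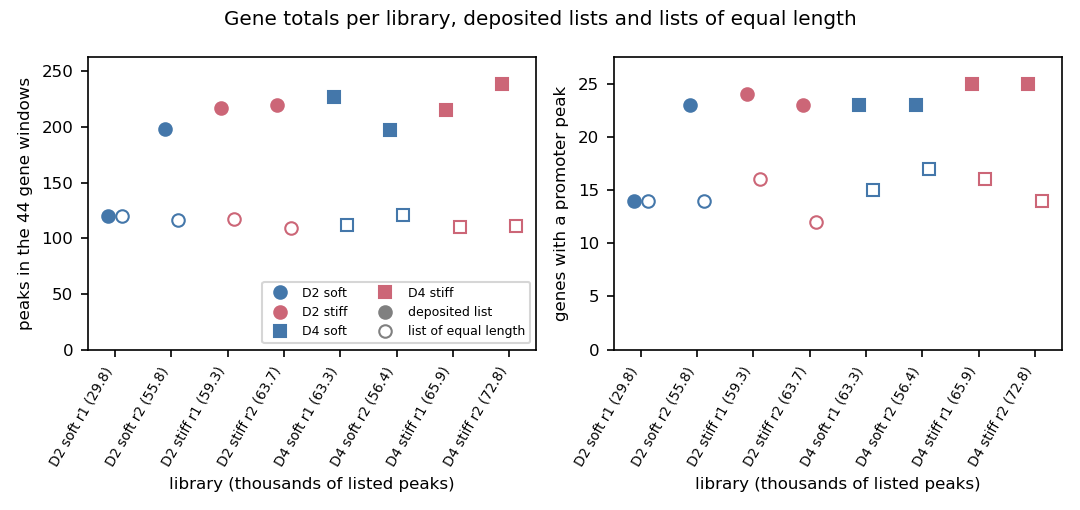
Peaks in the 44 gene windows (left) and genes with a promoter peak (right) in each library, with filled symbols for the deposited lists and open ones for lists of equal length. The deposited counts ran from 120 to 239 peaks, and with equal lengths from 109 to 121.

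Gene by gene, the stiff mean was higher for 28 of the 41 genes with a peak (68.3%) and lower for 4, beside 71.7% of all 18231 protein-coding genes with a peak. Peak counts did not overlap between stiff and soft libraries for 1 gene, ADAMTS8, a member of the hyalectanase group, which cleave large proteoglycans. This was 1 of 41 beside 2.55% of all genes with the stiff libraries higher. ADAMTS8 had 2 and 3 peaks in D2 soft, 3 and 3 in D4 soft and 4 in each stiff library (means of 4 and 2.75). The exact two-sided permutation test gave p = 0.0286, the smallest that 4 against 4 libraries allow, and an adjusted p of 1 over 18231 genes. No gene of the 18231 passed at the adjusted level, and 465 had an unadjusted p under 0.05. In the lists of equal length ADAMTS8 had 2 peaks in all libraries but D4 stiff replicate 1, which had 1, and the separation was lost.

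By number, the best ranks of ADAMTS3 and ADAMTS15 were lower in all soft than in all stiff libraries, 2 of 41 genes beside 1.31% of all genes. The stiff lists were longer on average, although D4 soft replicate 1 held more peaks (63272) than D2 stiff replicate 1 (59277). As a share of the list neither gene separated the matrices. ADAMTS3, which removes the propeptide of procollagen II and processes VEGF-C, had ranks of 9116 and 14513 in D2 soft and 7581 and 7905 in D4 soft, against 15852 and 29338 in D2 stiff and 16788 and 16629 in D4 stiff. These were 30.6%, 26.0%, 12.0% and 14.0% of the way down the soft lists and 26.7%, 46.1%, 25.5% and 22.8% down the stiff ones, and the groups overlapped. This peak was at the ADAMTS3 promoter in 7 libraries. Among the sites present in every library, the ranks of the promoter site also stayed apart, at 7009 to 12365 in soft and 12938 to 19570 in stiff libraries. ADAMTS15, a versican-cleaving hyalectanase, had ranks of 17976 and 21804 in D2 soft and 21989 and 21442 in D4 soft, against 25604 and 22383 in D2 stiff and 25520 and 27724 in D4 stiff. The rank of 17976 in D2 soft replicate 1 was 60.3% of the way down its short list, the lowest place of any library, and the others stood at 34.8% to 43.2%. At its downstream site present in every library, the ranks among shared sites also overlapped, at 16637 to 21303 in soft and 18117 to 22283 in stiff libraries. Ranked by fold enrichment in place of p, ADAMTS3 no longer separated, and ADAMTS15 did not when flanks were left out. For no gene did stiff libraries all rank above soft ones (2.31% of all genes). As a share of the list, 1 gene, ADAMTS14, separated the matrices, with stiff libraries higher (6.38% of all genes separated in either direction), at 6.998% to 13.2% of the way down the stiff and 14.4% to 19.2% down the soft lists.

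One site was listed by all stiff libraries and by none of the soft ones. It lay in the downstream flank of ADAM15, an integrin-binding sheddase, at chr1:155043282-155043804, with fold enrichments of 4.29 and 5.04 in D2 stiff and 5.25 and 6.81 in D4 stiff. This was 1 of 233 sites beside 0.85% of all sites, and no site of the genes was in every soft and no stiff library (0.0172%). Once the lists had equal length, 0 sites of the genes had either pattern, beside 0.446% of 38346 sites.

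Within a day, 11 genes had more peaks in each stiff library than in either soft library on day 2 (17.7% of all genes) and 4 on day 4 (14.8%). The reverse was seen for 0 genes on day 2 (0.258%) and for 3 on day 4 (2.1%). By site, peaks were in both stiff libraries and neither soft library at 14 sites on day 2 (7.45% of all sites) and at 9 on day 4 (6.72%). The reverse held at 0 sites on day 2 (0.391%) and 3 on day 4 (1.31%). With 2 libraries a group, an exact permutation test cannot go below p = 0.333, and none was made. Sites of 1 group alone were few. No site was in both D2 soft libraries alone (0.0411%). In both D2 stiff libraries alone, peaks lay at the ADAMTS4 promoter, described above, and at an ADAM10 intron (chr15:59017902-59018379, fold enrichments of 5.06 and 4.19). In both D4 stiff libraries alone they lay in introns of ADAMTS3 (chr4:73371066-73371454, 4.94 and 4.34) and ADAMTSL3 (chr15:84703740-84704407, 4.39 and 6.19), and in both D4 soft libraries alone in an intron of ADAMTS17 (chr15:100548482-100548746, 6.05 and 6.47). Shares of such sites over all sites were 0.611%, 1.82% and 0.521%, and 2, 2 and 1 of the 233 sites showed them.

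The second comparison asked whether day 4 differed from day 2. The windows held 219.5 ± 17.9 peaks on day 4 and 188.8 ± 46.9 on day 2 (mean ± SD, n = 4 each), and the groups overlapped. The difference of 30.8 peaks was 7.83 without D2 soft replicate 1 and -2 at equal list length. The day 4 mean was higher for 30 of 41 genes (73.2%) and lower for 6, beside 66% of all genes.

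On the soft matrix, 8 genes had more peaks in each D4 library than in either D2 library (12.6% of all genes) and 0 fewer (0.302%), and on the stiff matrix 4 had more (10.6%) and 3 fewer (2.9%). By site, peaks were in both D4 and neither D2 library at 12 sites on the soft (5.79%) and 7 on the stiff matrix (5.35%), and the reverse at 0 (0.403%) and 4 (1.41%). The D2 soft group holds the short list.

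Peak counts did not overlap between the days for ADAMTS9 and ADAMTS19, with day 4 higher, 2 of 41 genes beside 0.976% of all genes. ADAMTS9 had 1 and 2 peaks (D2 soft), 2 and 2 (D2 stiff), 4 and 3 (D4 soft) and 4 and 4 (D4 stiff). ADAMTS19, a protease with no established substrate, had 0 and 2, 2 and 2, 4 and 4, and 3 and 3. Each gave p = 0.0286 in the exact two-sided permutation test and an adjusted p of 1, and 178 of all genes had an unadjusted p under 0.05 and none an adjusted one. At equal length ADAMTS9 had 1 peak in all libraries but D2 stiff replicate 1, which had 2, and ADAMTS19 had 0 or 1, so that neither separated the days. No gene of the family had best ranks that did not overlap between the days (1.71% of all genes ranked better on D4 and 1% on D2). As a share of the list, 3 genes did, with D4 libraries higher (ADAM10, ADAMTS10 and ADAMTS3, beside 4.39% of all genes in either direction). These genes and ADAMTS14 were named on this scale after their values had been seen.

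ADAM12 separated the days only with lists of equal length. It then had 9 and 10 peaks (D2 soft), 10 and 10 (D2 stiff), 14 and 14 (D4 soft) and 12 and 11 (D4 stiff), where 0.192% of 16130 genes had every D4 library above every D2 library. The deposited lists did not separate the days for this gene, as the counts given above show. ADAM12 was named here after its values had been seen.

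Sites in every D4 library and in no D2 library numbered 3 of 233, beside 0.437% of all sites. The first lay in the upstream flank of ADAMTS9 at chr3:64676798-64677130, with fold enrichments of 5.62 and 3.62 (D4 soft) and 4.53 and 4.38 (D4 stiff). It is 1 of the peaks counted for ADAMTS9 above. The second lay in an intron of ADAMTS6 at chr5:64468230-64468941, with 7.06 and 5.52, and 7.15 and 5.57. The third lay in an intron of ADAM12 at chr10:127849707-127850080, with 3.85 and 3.70, and 6.04 and 4.95. No site showed the reverse (0.00927%). At equal length these 3 did not keep the pattern, and 1 other ADAM12 intronic site, chr10:127738346-127738685, had it (0.128% of all sites). In the deposited lists that site was also present on day 2, in 3 of 4 libraries.

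The windows of the 4 sites that separated the matrices or the days are shown because they are the sites of the genes that followed the design. Capitals mark the same motifs.
ADAM15, stiff libraries only, chr1:155043521-155043721: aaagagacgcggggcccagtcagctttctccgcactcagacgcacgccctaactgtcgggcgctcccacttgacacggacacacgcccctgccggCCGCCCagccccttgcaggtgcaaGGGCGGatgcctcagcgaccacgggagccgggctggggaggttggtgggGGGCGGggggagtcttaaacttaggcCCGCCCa
ADAMTS9, D4 libraries only, chr3:64676943-64677143: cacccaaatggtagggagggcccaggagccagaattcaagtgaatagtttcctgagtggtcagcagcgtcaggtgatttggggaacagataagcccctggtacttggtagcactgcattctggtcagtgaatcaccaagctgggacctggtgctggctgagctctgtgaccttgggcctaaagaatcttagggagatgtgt
ADAMTS6, D4 libraries only, chr5:64468355-64468555: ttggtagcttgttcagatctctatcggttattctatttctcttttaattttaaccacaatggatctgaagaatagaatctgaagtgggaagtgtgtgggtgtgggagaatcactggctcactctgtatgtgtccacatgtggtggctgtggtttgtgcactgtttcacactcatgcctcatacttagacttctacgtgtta
ADAM12, D4 libraries only, chr10:127849932-127850132: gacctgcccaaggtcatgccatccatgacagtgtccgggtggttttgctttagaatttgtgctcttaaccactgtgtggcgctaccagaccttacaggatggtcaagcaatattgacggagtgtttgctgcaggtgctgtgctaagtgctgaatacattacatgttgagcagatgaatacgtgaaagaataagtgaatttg
The ADAM15 window had a GC content of 69.2% and 4 GC box matches. The 3 windows listed on D4 only held none of the 3 motifs, and their GC content was 41.8% to 52.7%.

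**Figure D5:**
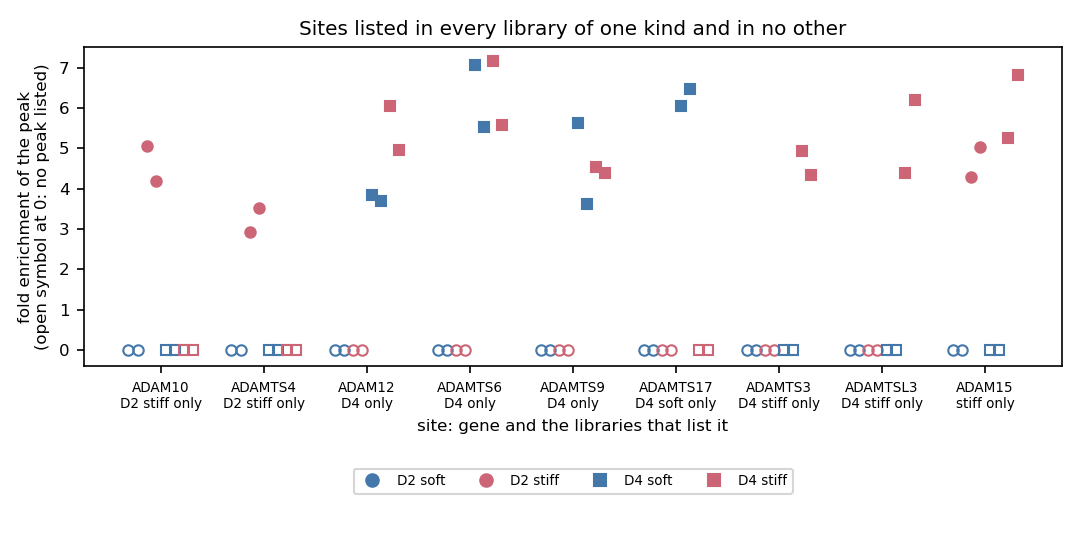
Fold enrichment of the peak at 9 sites that were listed in every library of 1 kind and in no other, with 1 symbol per library (circles D2, squares D4, open at 0 where no peak was listed). The listed values lay between 2.92 and 7.15.

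At the 100 sites present in every library, ranks were compared with limma on normal scores of the within-library rank, fitted over 24246 such sites with 4 group means. No site of the genes passed an adjusted p of 0.05 in any of the 7 contrasts (stiff against soft and D4 against D2, pooled and within each day or matrix, and their interaction). Over all sites, 0.00825% passed for stiff against soft and 0% for D4 against D2. At an unadjusted p under 0.05, 4 sites were higher and 3 lower on the stiff matrix (3.84% and 4.04% of all sites), and 1 was higher and 4 lower on D4 (2.64% and 3.13%).

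The site with the lowest p for stiffness was in an intron of ADAMTSL1 (chr9:18393292-18393920), with an effect of -1.04 ± 0.29 (SE) normal score units, stiff minus soft, and an adjusted p of 0.351. Its ranks among the shared sites were 9999 to 16994 in soft and 16196 to 21966 in stiff libraries. The second was in an ADAMTS12 intron (chr5:33854632-33855716, effect 1.01 ± 0.33, adjusted p = 0.439), with ranks of 1327 to 3412 in stiff and 4236 to 18514 in soft libraries, where 18514 was in D2 soft replicate 1. Its effect was 0.56 without that library and 1.42 without D2 soft replicate 2. The third was the ADAMTS3 promoter (effect -0.69 ± 0.29, adjusted p = 0.566).

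For the day, the lowest p was in an intron of ADAM19 (chr5:156900234-156900816), a sheddase of neuregulin, with an effect of -1.03 ± 0.27, D4 minus D2, and an adjusted p of 0.765. Its ranks were 9263 to 12631 on D2 and 16699 to 22191 on D4. The ADAM19 promoter followed with the opposite sign (effect 0.78 ± 0.31, adjusted p = 0.864) and ranks of 17799 to 23469 on D2 and 12225 to 18488 on D4. Its effect was 0.48 without D2 soft replicate 1 and 1.08 without D2 soft replicate 2. The third was another ADAMTSL1 intron (chr9:18442760-18443377, effect -0.85 ± 0.34, adjusted p = 0.864), whose effect was -0.52 without D2 soft replicate 2 and also without D4 soft replicate 1.

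One library decided whether sites of the genes were called. Without D2 soft replicate 2, which left the short list alone in its group and assumes that it varies like the others, limma called ADAMTS12 (chr5:33854632-33855716) and ADAMTS14 (chr10:72475284-72476310) for stiff against soft, with effects of 1.42 and 1.67 and adjusted p of 0.0374 and 0.0461. These were 2 of 103 sites of the genes, beside 0.418% of all 24629 sites called in that fit. It then also called 4 sites on day 2 (2.23% of all sites), 3 for D4 against D2 on the soft matrix (1.3%), and 1 for the interaction (0.227%). Without D2 soft replicate 1 no site of the genes was called in any contrast.

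The lowest-p sites of ADAMTSL1 and ADAM19 are shown because they had the lowest p among the shared sites of the genes, for stiffness and for day.
ADAMTSL1 intronic site, chr9:18393343-18393543: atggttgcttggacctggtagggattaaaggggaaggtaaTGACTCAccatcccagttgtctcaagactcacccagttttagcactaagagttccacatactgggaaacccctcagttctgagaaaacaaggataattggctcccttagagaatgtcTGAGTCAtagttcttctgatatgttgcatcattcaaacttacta
ADAM19 intronic site, chr5:156900547-156900747: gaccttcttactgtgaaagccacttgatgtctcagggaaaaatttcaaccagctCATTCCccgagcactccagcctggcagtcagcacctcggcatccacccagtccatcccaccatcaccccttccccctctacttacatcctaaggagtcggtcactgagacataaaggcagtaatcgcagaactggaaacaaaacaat
The ADAMTSL1 window held 2 AP-1 matches and the ADAM19 window 1 TEAD match.

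Genes that act with the family were read from a list of 27 inhibitors, convertases, trafficking partners and substrates. A promoter peak was present in all 8 libraries for 9 of them, in some for 11 and in none for 7. The iRhom genes RHBDF1 and RHBDF2, which traffic ADAM17, had constant promoter peaks, as had TSPAN5 and TSPAN17, tetraspanins that bind ADAM10, and the substrates HBEGF and NOTCH1. The fibrillin genes FBN1 and FBN2 and LTBP1 had them too. RECK, a membrane inhibitor, had a promoter peak in 7 libraries, FURIN, which activates proproteases, in 6, and TIMP3, the main inhibitor of ADAM17 and the aggrecanases, in 3. Of the proteoglycan substrates, VCAN had one in 1 library and ACAN, BCAN and NCAN in none. Of the 27 genes 0 had peak counts that did not overlap between matrices (2.55% of all genes with stiff higher) or between days (0.976% with D4 higher). TSPAN15, another tetraspanin gene, had a promoter peak in all 4 stiff and 0 soft libraries (0.174% of all genes). For TSPAN15, neither the ranks of these promoter peaks nor their presence with lists of equal length is given here. By number, its best ranks were lower in all soft than in all stiff libraries (1.31%), and those of TSPAN17 were lower in all D4 than in all D2 libraries (1.71%). These ranks were not divided by the list lengths, and both genes were named after their values had been seen.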

How the data were processed

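ATAC-seq peak lists of 8 LX-2 libraries were analysed, 2 replicates in each of 4 groups taken from the labels. The study's methods call the sequencing replicates biological, and the sources used here do not say whether they were separate cultures, so p-values measure the spread between these libraries, which may be technical. The authors trimmed reads with Trim Galore, mapped them to hg19 (GRCh37) with Bowtie2 (version 2.4.1 per the processing notes) and called peaks per library with MACS2 at a q-value of 0.05, without pooling replicates. The options of MACS2 and the treatment of Tn5 offsets are not given in the sources used here. The deposited lists give for each peak a fold enrichment (a ratio of pileup to local background), a −log10 p, a −log10 q and a score, which the authors' caller wrote and which compare peaks within 1 list only. The deposited score was not used. Read counts per peak, which the authors compared with DESeq2, were not analysed here, and no count model was fitted.

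Genes, transcript starts and features came from GENCODE release 44 lifted to GRCh37, and coordinates are 1-based. The genes, gene lists and tests were chosen with earlier results of these data known. Peaks sharing at least 1 bp were merged over lists, and sites with peaks in at least 2 libraries were kept. Genes named with values were those with a variable promoter, the 5 best by mean rank, the 5 with the most peaks, those whose groups did not overlap, sites that followed stiffness or day, and the 3 sites with the lowest p in each pooled contrast. Peak counts per gene were compared by exact two-sided permutation over 70 arrangements with Benjamini-Hochberg adjustment over 18231 genes. Ranks at shared sites were compared with limma 3.58.1 in R 4.3.3 (other steps in Python 3.11.15). On simulated ranks over the 24246 shared sites for stiff against soft, limma recovered 16% of sites shifted by 1 normal score unit and 97% of those shifted by 2. The simulated noise had the same SD (0.457) for all sites and libraries, so these shares need not hold for the real lists. Alternatives were lists of equal length, a q-value up to 0.01, other windows, starts and ranks, and leaving out each library. Ranks as a share of the list and a block by the numbers in the peak names were added after seeing the data.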

Additional observations from a re-analysis of the deposited data

Results flagged for a closer look

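Among 20 groups of 4 libraries examined for a library far from the others, 3 had one, and chance flags about 1 in 20. D2 soft replicate 1 was the lowest with 14 genes that had a promoter peak, both among the soft libraries (23 in each of the others) and among the D2 libraries (23 or 24 in the others). This library had the shortest list, with 29789 peaks, and with lists of equal length its value of 14 lay within the range of 12 to 17. D4 stiff replicate 1 was the lowest stiff library, with 38 genes that had any peak where the others had 39.

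An ADAMTS16 intronic site, chr5:5154814-5155978, had peaks in 4 libraries and pointed in opposite directions on the 2 days. It was listed in both stiff and neither soft library on day 2 (fold enrichments of 5.28 and 4.68), and in both soft and neither stiff library on day 4 (3.91 and 6.17). The difference between the days was not tested. Such a pattern was seen at 83 of all sites, or 0.11%. The window around its summit is shown because the site is 14953 bp from the nearest start of the gene with the best-ranked peaks, and it held no AP-1, TEAD or GC box match.
ADAMTS16 intronic site, chr5:5154955-5155155: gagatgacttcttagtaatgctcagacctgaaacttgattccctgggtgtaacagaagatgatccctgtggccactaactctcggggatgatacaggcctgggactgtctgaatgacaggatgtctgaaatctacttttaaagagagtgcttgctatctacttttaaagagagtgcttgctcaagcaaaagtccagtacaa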

How the results depend on the processing

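With lists of equal length, the difference in peaks over the gene windows reversed, to -5.5 for stiff minus soft and -2 for D4 minus D2. In that setting 9 genes had a promoter peak in all libraries. Peak counts separated the matrices for 0 genes (0.651% of all genes in either direction) and the days for 1 (0.347%). Best ranks separated the matrices for 2 genes (3.41%) and the days for 0 (2.46%). The cut left the rank of every kept peak unchanged, and all best ranks of the 2 genes lay inside it. This setting therefore cannot test their rank separation. There, 0 sites followed stiffness (0.446% of all sites) and 1 the day (0.214%). Fewer peaks are counted there by construction. With a q-value up to 0.01, peak counts of 3 genes (2.73% of all genes) and 2 sites (0.917% of all sites) separated the matrices. Without flanks, 0 genes separated the matrices (1.94% of all genes) and 0 the days (0.774%) by peak counts. By best ranks, 1 gene separated the matrices (3.66%) and 0 the days (2.76%). In the same setting 0 sites followed stiffness (0.868% of all sites) and 2 the day (0.446%). Ranked by fold enrichment, 1 gene separated the matrices (3.85% of all genes). With ranks as a share of the list, chosen after seeing the data, 1 gene separated the matrices (6.38%) and 3 the days (4.39%). The cause of these shifts was not tested.

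Leaving out each library in turn gave 14 to 22 constant promoters (22 without D2 soft replicate 1), 15.4 to 51.1 more peaks on the stiff matrix and 7.83 to 41.2 more on D4. Genes separated by peak counts numbered 1 to 4 for stiffness (2.77% to 6.26% of all genes) and 2 to 3 for day (1.33% to 3.06%), and by best ranks 2 to 4 (5.73% to 7.58%) and 0 to 2 (4.92% to 6.02%). Sites numbered 1 to 3 for stiffness (1.11% to 2.13% of all sites) and 3 to 4 for day (0.686% to 1.25%). Sites called by limma numbered 0 to 2 for stiffness, 0 for day, 0 to 4 for stiffness on day 2, 0 on day 4, 0 to 3 for day on the soft matrix, 0 on the stiff matrix and 0 to 1 for the interaction, with every call coming from the fit without D2 soft replicate 2.

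The replicate numbers did not pair the libraries (correlations of deviations from -0.0251 to 0.103), and a fit with the replicate number as a block called 0 sites of the genes in each of the 7 contrasts, as without it. The peak names carry other numbers than the labels, and a replicate block by those numbers, added after seeing the data, also called 0 sites of the genes.

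Weak peaks limit all counts, since a list ends where the caller's threshold falls and the number of reads behind it is unknown. Presence and absence of a peak near the end of a list therefore say little about the change in accessibility, and the 2 libraries of a group allow no test within a day or matrix except the one that pools the spread.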
